A study of Mus musculus with 48 samples.

Results

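A set of 10 genes of lipoprotein export and return, listed by role and found on the array by gene symbol, were followed in the livers of diet-induced obese mice: Apob, Mttp, Apoe, Apoc3, Apoa5, Apoa4, Apoa1, Lcat, Scarb1 and Lipc. Of the 10 genes, 9 had at least 1 probe set that carried their symbol alone, and together they held 17 of the 45037 probe sets tested. No probe set was matched to Lipc by symbol, and Lipc was not analysed here. The liver packs triglyceride and cholesterol into very low density lipoprotein (VLDL) around 1 molecule of apolipoprotein B, and secretes it into the blood. Smaller apolipoproteins on the particle then set how fast its triglyceride is broken down and taken up. High density lipoprotein (HDL), which is built around apolipoprotein A-I, brings cholesterol back to the liver.

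The mice were male C57BL/6J, a common inbred strain, aged 6 to 7 weeks on arrival and housed singly. All of them were made obese on the L-P/C-HF diet, a high-fat diet with a low ratio of protein to carbohydrate, and only those with the poorest glucose clearance entered the study. Of these, 24 stayed on L-P/C-HF, which serves as the control, and 24 were switched to H-P/C-HF, with the same share of energy from fat but part of the carbohydrate exchanged for protein. Livers were taken 2 days (2-d) or 4 weeks (4-wk) after the switch, giving 4 groups of 12 mice with 1 Affymetrix array per mouse. The 4-wk mice were thus older, were killed on other days and had been through another glucose tolerance test, so that duration cannot be told apart from age or from day of collection. The study also reports that switched mice took in less energy than controls soon after the switch, and gained less weight by both times. By the later time their lower energy intake did not reach significance in the study. The diet comparison at 2-d is therefore also one of energy intake. The part of energy intake in the diet differences was not tested. The array of 1 H-P/C-HF 2-d mouse, B25, was left out, which leaves 11 mice in that group and 47 in all. Its removal follows the methods of the study, which judged it an outlier.

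Levels are on a log2 scale, on which a difference of 1 is a doubling, and the median level per array lay between 6.73 and 6.91. Albumin had a mean level of 14.59, and the mean level of 10 hepatocyte markers lay between 13.65 and 13.75 in the 4 groups. Of the markers of intestine, the other main source of Apob, Apoa4 and Mttp transcripts, 8 were measured. Vil1 had a mean level of 5.50, Lct of 5.91, Cdx2 of 6.15, Cdx1 of 6.34 and Cdh17 of 6.665. These lay between percentiles 24.06 and 47.29 of all probe sets. Alpi (6.93) and Muc13 (7.2) lay at percentiles 52.76 and 58.3, and Fabp2 (11.28) at 96.97. B25 was below every other array of its group for 16 of the 17 probe sets. Array A09 of the L-P/C-HF 2-d group was the lowest of its group for 7 and the highest for 1 of them. Quality control by the authors also grouped A01, A09 and A24 away from the other arrays, and the calls for the 17 probe sets were the same without these 3. A measure of RNA quality also differed between the durations. The 3′ minus the 5′ signal of the Gapdh and beta-actin control transcripts, which is larger when RNA is shorter or copied less far, averaged 0.478 ± 0.187 (SD, n = 12) in control and 0.477 ± 0.125 (SD, n = 11) in switched mice at 2-d. At 4-wk it averaged 0.244 ± 0.0653 and 0.273 ± 0.108 (SD, n = 12 each).

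The sequences just before the RefSeq start of Mttp and Apoa5 are given first, because these genes had the lowest p-values in the diet comparison at 2-d and were the ones called with duration. Each is 250 bases of the GRCm38.p6 assembly, written 5′ to 3′ along the gene, on chr3:138143419-138143668 (minus strand) for Mttp and on chr9:46268358-46268607 (plus strand) for Apoa5. Capitals mark matches on either strand to any of AGGTCA (a nuclear receptor half-site), GTTAAT (an HNF1 half-site), TATAAA (the TATA box) and CCAAT.
Mttp: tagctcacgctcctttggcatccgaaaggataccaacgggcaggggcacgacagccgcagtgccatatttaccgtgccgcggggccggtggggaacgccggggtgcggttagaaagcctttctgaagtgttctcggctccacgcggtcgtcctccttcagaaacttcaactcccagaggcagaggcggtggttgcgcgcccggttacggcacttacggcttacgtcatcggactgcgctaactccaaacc
Apoa5: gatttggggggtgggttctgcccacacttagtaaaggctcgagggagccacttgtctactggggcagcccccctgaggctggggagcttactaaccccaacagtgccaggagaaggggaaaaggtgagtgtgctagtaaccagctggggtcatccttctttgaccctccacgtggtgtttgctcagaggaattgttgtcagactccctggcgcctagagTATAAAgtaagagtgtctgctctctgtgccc
The Apoa5 window held TATAAA once, on the plus strand and 31 bases before the start, and the Mttp window held none of the 4 motifs. Of the 32851 promoter windows of the same length in the reference, 12.4% held TATAAA, 14% AGGTCA, 6.43% GTTAAT and 33.8% CCAAT. A window was found in the reference for 8 of the 10 genes, and of these Apoa5 and Apob held TATAAA, Lcat and Lipc held CCAAT, and none held AGGTCA or GTTAAT, as counted at the first listed start. The matches depend on the start used, since at other listed starts Lipc held AGGTCA and Apoe held GTTAAT and TATAAA. Apoa1, Apoc3, Apoa4 and Apoa5 lie next to each other in this order on chromosome 9, with 0 other genes of the reference between them.

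The study asked what exchanging carbohydrate for protein in a high-fat diet does to cholesterol metabolism, and for these 9 genes the first comparison was H-P/C-HF against L-P/C-HF at each duration. No apolipoprotein gene and none of the genes for assembly or return passed the test for a diet difference at 2-d or at 4-wk. At 2-d the lowest p-values belonged to Mttp and Apoa5, both lower in H-P/C-HF mice, by 0.22 ± 0.0628 and 0.14 ± 0.0483 on the log2 scale (SE). At 4-wk these differences were -0.05 ± 0.0615 and -0.00 ± 0.0473. None of the 17 probe sets was called by limma with Benjamini-Hochberg adjustment over all probe sets at 2-d (0.0133% of all probe sets called), at 4-wk (0%), averaged over both durations (0.0511%) or for the difference between the diet effects (0%). At an unadjusted p under 0.05, 3 of the 17 passed at 2-d, all lower, beside 3.52% of all probe sets (1.62% lower), and 0 passed at 4-wk, beside 2.76%. The averaged effect passed this limit in the same 3, all lower, beside 4.56% (2.57% lower), and the difference between the diet effects in 0, beside 1.63%. The 3 are both probe sets of Mttp and that of Apoa5. By the brightest probe set of each gene, 2 of 9 passed at 2-d and on average, beside 3.66% and 4.99% of all genes (1.62% and 3.01% lower). A one-way ANOVA also called 0 of the 17 in each comparison. The median difference of the 17 probe sets was 0.00 at 2-d and -0.01 at 4-wk, and that of all probe sets was 0.01 and -0.01. Of the 10 hepatocyte markers 9 were higher in the switched mice at 2-d, beside 53.2% of all genes. Their median difference was 0.05, and none was called. At an unadjusted p under 0.05 (limma), 3 of these 10 passed, all higher, beside 2.04% of all genes. The mean level of these markers per mouse ran from 13.24 to 13.77 in control and from 13.66 to 13.85 in switched mice at 2-d. In whole liver, fewer cells of a type and less RNA per cell cannot be told apart.

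**Figure D1:**
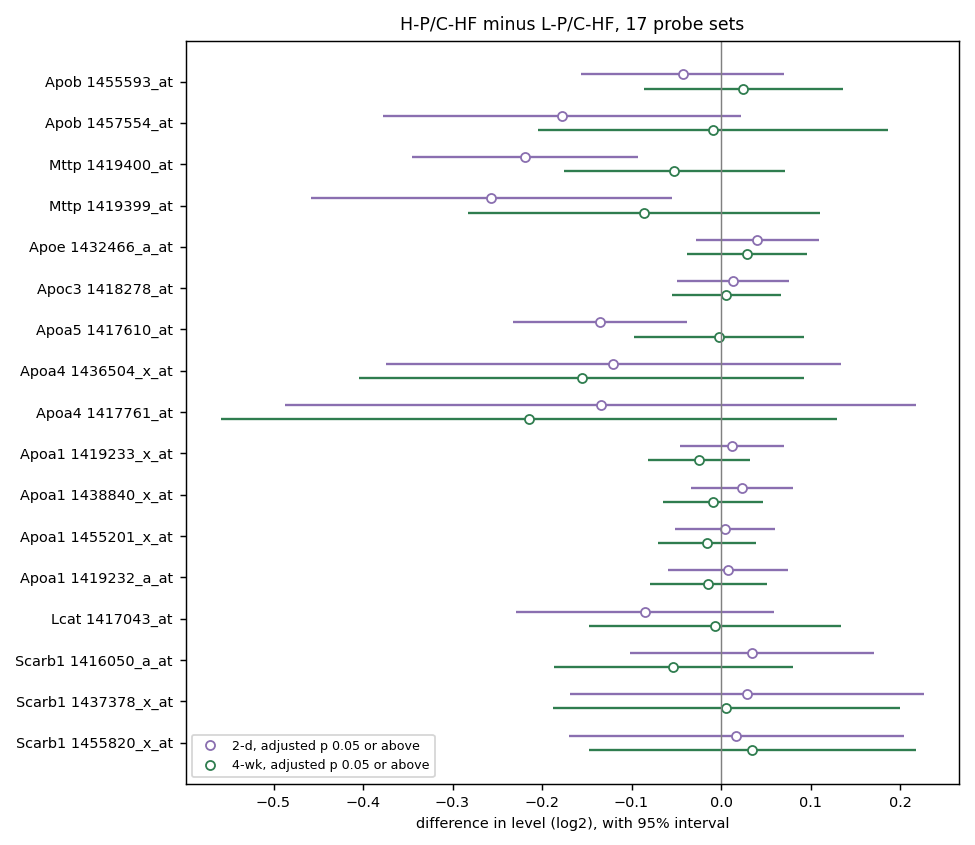
Log2 level of H-P/C-HF mice minus that of L-P/C-HF mice (x axis) for the 17 probe sets (y axis), at 2-d (purple, 11 against 12 mice) and at 4-wk (green, 12 against 12), with 95% intervals from the limma fit. The intervals of both Mttp probe sets and of Apoa5 lie below 0 at 2-d, but none of the 17 passed after adjustment over all probe sets.

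Apob codes for the structural protein of VLDL and low density lipoprotein, without which the liver cannot secrete VLDL. Its brighter probe set (1455593_at) ranged from 13.40 to 13.68 with a median of 13.58 in control mice at 2-d, and from 13.35 to 13.65 with a median of 13.54 in switched mice. At 4-wk it ranged from 13.19 to 13.66 (median 13.51) in control and from 13.06 to 13.65 (median 13.52) in switched mice. All 4 groups shared the range from 13.40 to 13.65, but the 4-wk groups reached lower, and the spread between mice was wider at 4-wk (SD 0.169 and 0.159) than at 2-d (SD 0.0791 and 0.0968), a difference in spread that was not tested. The diet difference was -0.04 (95% interval -0.156 to 0.0702) at 2-d and 0.03 (-0.0858 to 0.136) at 4-wk. The dimmer probe set (1457554_at) gave -0.18 ± 0.0997 (SE, p = 0.0802, limma) at 2-d and -0.01 ± 0.0976 at 4-wk, and its deviations from the group means followed those of the brighter one only loosely (r = 0.373 over 47 mice).

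Mttp codes for the microsomal triglyceride transfer protein, which loads lipid onto apolipoprotein B as it is made. The level of its brighter probe set (1419400_at) ran from 11.35 to 11.98 with a median of 11.57 in L-P/C-HF 2-d mice, and from 11.15 to 11.65 with a median of 11.42 in H-P/C-HF 2-d mice. The groups overlapped, but 10 of the 11 switched mice were under the control median. The difference was -0.22 (95% interval -0.345 to -0.0928), or 0.859-fold, with p = 0.00103 and an adjusted p of 0.788 by limma. The other probe set (1419399_at) gave -0.26 (-0.458 to -0.0552, adjusted p = 1 by limma), and all 11 switched mice were under the control median of 11.38. At 4-wk the brighter probe set ran from 11.35 to 11.85 (median 11.60) in control and from 11.38 to 11.76 (median 11.55) in switched mice, of which 9 of 12 were under the control median. Averaged over the durations, the differences were -0.14 ± 0.044 and -0.17 ± 0.0701 (SE; adjusted p = 0.677 and 0.964, limma). Whether the diet effect itself changed from 2-d to 4-wk was tested by the interaction term, which was 0.17 ± 0.0879 (SE, p = 0.0639, adjusted p = 1, limma) for the brighter probe set. The group means of the RNA quality measure were nearly equal between the diets at 2-d, as given above, and with this measure as a covariate the 2-d differences were -0.22 and -0.26 (adjusted p = 0.597 and 0.377, limma).

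**Figure D2:**
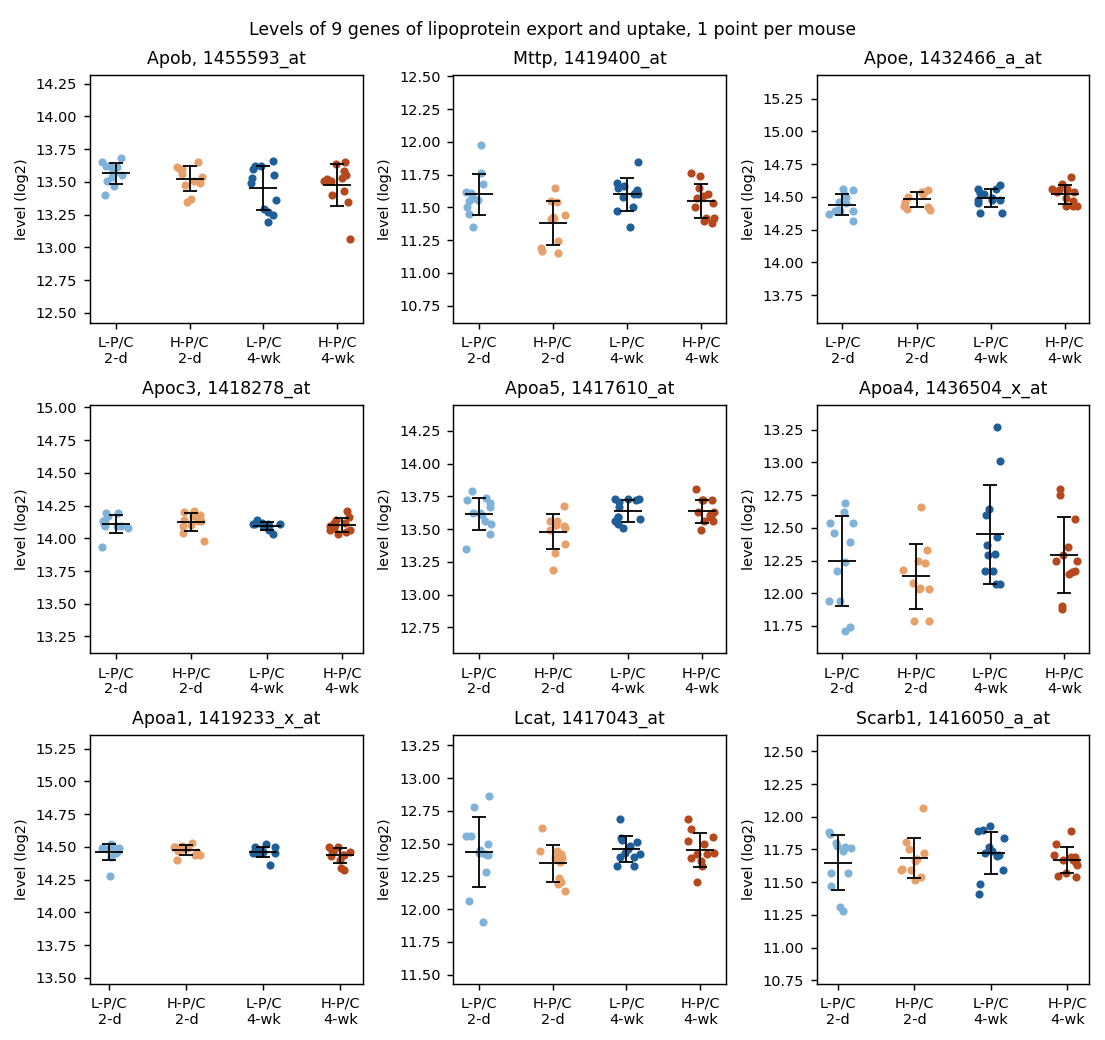
Level per mouse (log2, y axis) of the brightest probe set of each of the 9 genes in the 4 groups (x axis), with 1 point per mouse, a horizontal bar at the group mean and an error bar of 1 SD. Every panel spans the same range of log2 units, so that Apoa4, with SDs from 0.247 to 0.375, shows the widest scatter and Apoa1, with SDs from 0.0375 to 0.0625, one of the narrowest.

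Apoe, Apoc3 and Apoa5 code for exchangeable apolipoproteins that act on the particle after secretion. Apolipoprotein E is the ligand by which remnants are taken up, apolipoprotein C-III slows lipolysis and uptake, and apolipoprotein A-V speeds lipolysis. Apoa5 ran from 13.35 to 13.79 (median 13.62) in L-P/C-HF 2-d mice and from 13.19 to 13.68 (median 13.52) in H-P/C-HF 2-d mice. The groups overlapped, with 10 of the 11 switched mice under the control median. The difference was -0.14 (95% interval -0.232 to -0.0379, p = 0.00737, adjusted p = 1, limma), or 0.911-fold. At 4-wk the range was 13.51 to 13.73 (median 13.63) in control and 13.49 to 13.81 (median 13.62) in switched mice, with 6 of the 12 above and 6 under the control median. The change of the Apoa5 diet effect between the durations was 0.13 ± 0.0676 (SE, p = 0.0555, adjusted p = 1, limma).

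Apoe and Apoc3 had smaller differences. Apoe had group medians of 14.42 and 14.50 at 2-d and of 14.48 and 14.54 at 4-wk (L-P/C-HF first), within a range of 14.32 to 14.65 over all mice. Its diet differences were 0.04 (95% interval -0.0283 to 0.109) and 0.03 (-0.0378 to 0.0961). Apoc3 had medians of 14.11 and 14.13 at 2-d and of 14.10 in both diets at 4-wk, and its lowest mouse, at 13.93, was A09. The Apoc3 differences were 0.01 (-0.0488 to 0.0762) at 2-d and 0.01 (-0.0553 to 0.067) at 4-wk.

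Apoa1, Apoa4, Lcat and Scarb1 stand for HDL. Apolipoprotein A-I forms the HDL particle, lecithin-cholesterol acyltransferase (Lcat) esterifies its cholesterol, and the scavenger receptor Scarb1 takes cholesteryl ester from it into the hepatocyte. Apoa1 was the most even of the genes, with medians of 14.48, 14.48, 14.46 and 14.45 in L-P/C-HF 2-d, H-P/C-HF 2-d, L-P/C-HF 4-wk and H-P/C-HF 4-wk mice by its brightest probe set. All 4 Apoa1 probe sets had diet differences between -0.03 and 0.02, and their widest 95% interval ran from -0.0797 to 0.0514 at 4-wk and from -0.0593 to 0.0748 at 2-d. Apoa1, Apoe and Apoc3 lay near the highest value in the file, 14.81, and the 451 brightest probe sets had a median SD within groups of 0.127 against 0.184 for all probe sets. Whether the top of the scale narrows differences of these genes was not tested.

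Apoa4 codes for an apolipoprotein of chylomicrons and HDL whose hepatic transcript is known to follow lipid load and fasting. It varied most between mice. The brighter probe set (1436504_x_at) ran from 11.71 to 12.69 (median 12.32) in L-P/C-HF 2-d, from 11.79 to 12.66 (median 12.08) in H-P/C-HF 2-d, from 12.07 to 13.27 (median 12.34) in L-P/C-HF 4-wk and from 11.88 to 12.80 (median 12.25) in H-P/C-HF 4-wk mice. Its SD within groups was larger than that of 93% of all probe sets, and the other probe set (1417761_at), with an SD of 0.447, moved with it from mouse to mouse (r = 0.893 over 47 mice). H-P/C-HF was below L-P/C-HF by both probe sets and at both durations, by 0.12 ± 0.127 and 0.13 ± 0.175 (SE) at 2-d and by 0.16 ± 0.124 and 0.21 ± 0.172 (SE) at 4-wk. These differences were smaller than the spread between mice, and that of 1417761_at at 2-d was 0.00 with array weights. The intervals at 4-wk, -0.404 to 0.0928 and -0.559 to 0.13, hold both no difference and levels down to 0.756-fold and 0.679-fold of the control.

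Lcat ran from 11.90 to 12.86 (median 12.44) in L-P/C-HF 2-d and from 12.14 to 12.62 (median 12.39) in H-P/C-HF 2-d mice, and had medians of 12.44 and 12.42 at 4-wk. The ends of the first group were A01 and A09. The Lcat diet differences were -0.09 (95% interval -0.229 to 0.0587) and -0.01 (-0.147 to 0.134). The brightest Scarb1 probe set had group medians of 11.75, 11.66, 11.73 and 11.67 in the same order as Apoa1, and the 3 Scarb1 probe sets had diet differences between -0.05 and 0.04. None of them passed.

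The second comparison was 4-wk against 2-d within each diet, which adds the effects of feeding time to those of age and of the day of collection. Apoa1, Apoc3, Apoe, Lcat and Scarb1 had differences between -0.13 and 0.10 on the log2 scale in both diets, and none of these passed. Mttp probe set 1419399_at rose within L-P/C-HF by 0.47 ± 0.098 (SE, adjusted p = 0.00095, limma) and within H-P/C-HF by 0.64 ± 0.1 (SE, adjusted p = 1.7e-05, limma), or 1.39-fold and 1.56-fold. Apoa5 rose within H-P/C-HF by 0.16 ± 0.0483 (SE, adjusted p = 0.0376, limma). These made 1 of 17 probe sets within L-P/C-HF, beside 6.87% of all probe sets (5.39% higher), and 2 of 17 within H-P/C-HF, beside 6.69% (4.71% higher).

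**Figure D3:**
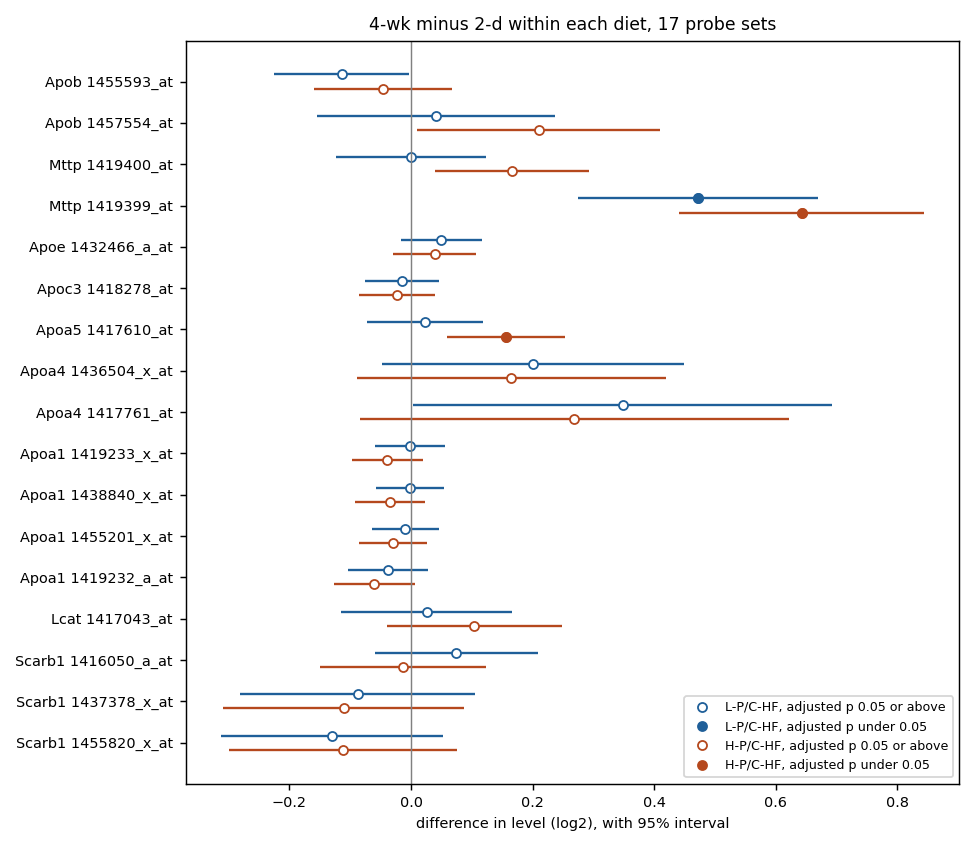
Difference in log2 level between 4-wk and 2-d (x axis) for the 17 probe sets (y axis) within L-P/C-HF (blue, 12 against 12 mice) and within H-P/C-HF (red, 12 against 11), with 95% intervals. Filled points have an adjusted p under 0.05, and they are Mttp 1419399_at in both diets and Apoa5 in H-P/C-HF.

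The Mttp probe sets differed in this comparison. By 1419399_at the L-P/C-HF mice ran from 10.59 to 11.59 (median 11.38) at 2-d and from 11.25 to 11.96 (median 11.77) at 4-wk, and the H-P/C-HF mice from 10.67 to 11.26 (median 10.99) and from 11.32 to 12.15 (median 11.60). The H-P/C-HF durations did not overlap, and in L-P/C-HF 11 of 12 mice at 4-wk lay above the 2-d median. By 1419400_at, however, the difference was -0.00 (95% interval -0.124 to 0.123) within L-P/C-HF and 0.17 ± 0.0628 (SE, adjusted p = 0.11, limma) within H-P/C-HF. The deviations of the 2 probe sets from their group means had an r of 0.524 over 47 mice.

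RNA quality moved with the duration and with 1 of these probe sets. The deviations of 1419399_at from the group means fell with the 3′ minus 5′ measure, with r = -0.764 (permutation p = 1e-05, the smallest that the permutations can give; adjusted p = 0.00017 over 17 relations) and rho = -0.715 (permutation p = 1e-05, adjusted p = 0.00017). Without the 2 mice farthest from the median of the measure r was -0.732. For 1419400_at r was -0.101 (permutation p = 0.536, adjusted p = 0.701) and rho was -0.103 (permutation p = 0.503, adjusted p = 0.534), and without the 2 farthest mice r was -0.234. With the measure as a covariate, 1419399_at was higher at 4-wk by 0.13 within L-P/C-HF (adjusted p = 0.83, limma) and by 0.34 within H-P/C-HF (adjusted p = 0.0103, limma).

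**Figure D4:**
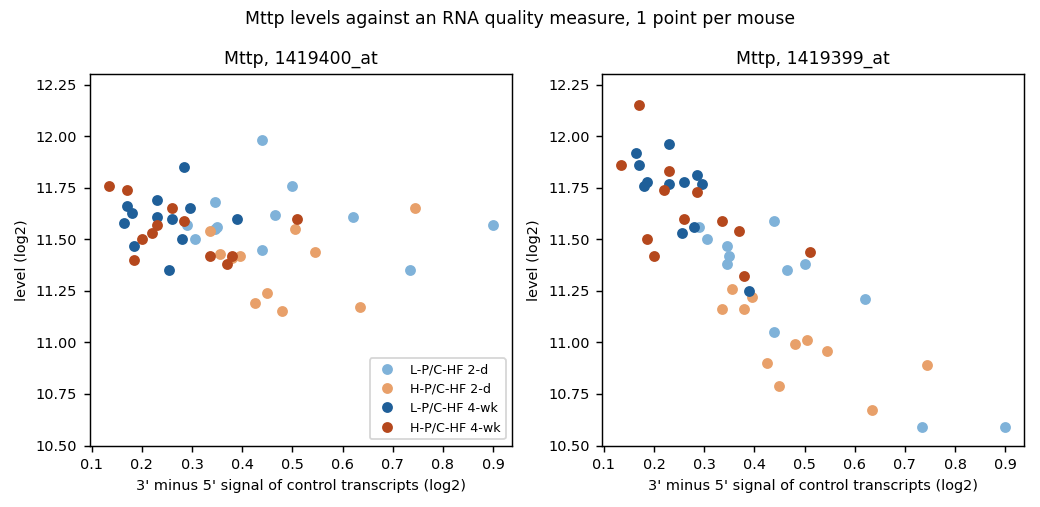
Level per mouse (log2, y axis) of both Mttp probe sets against the 3′ minus 5′ signal of control transcripts (log2, x axis), with 1 point per mouse coloured by group. In the right panel (1419399_at) the level falls from left to right within the groups, with r = -0.764 for deviations from group means, whereas r is -0.101 in the left panel (1419400_at).

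Lcat also followed the measure (r = -0.671, permutation p = 2e-05, adjusted p = 0.00017; rho = -0.581, permutation p = 7e-05, adjusted p = 0.000595; r = -0.568 without the 2 farthest mice). Its difference between the durations was 0.03 ± 0.07 within L-P/C-HF and 0.10 ± 0.0716 within H-P/C-HF (SE), and -0.18 and -0.08 with the covariate (adjusted p = 0.278 and 0.812, limma), so that its direction turned with this setting while neither passed. Apoa5 did not follow it (r = -0.0855, permutation p = 0.613, adjusted p = 0.744; rho = -0.0945, permutation p = 0.54, adjusted p = 0.54; r = -0.117 without the 2 farthest mice). Of the other 13 probe sets, none had an adjusted p under 0.05 for r, whereas by rho the 4 of Apoa1 (0.388 to 0.434) and the brighter of Apob (-0.326) did.

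The Apoa5 rise within H-P/C-HF brought that group from a median of 13.52 to one of 13.62, and 11 of 12 mice at 4-wk lay above the 2-d median, although the ranges overlapped. Within L-P/C-HF the Apoa5 difference was 0.02 ± 0.0473 (SE, adjusted p = 0.884, limma). The rise was not called with cyclic loess (0.126, adjusted p = 0.108), with the RNA quality covariate (0.141, adjusted p = 0.3) or with array weights (0.114, adjusted p = 0.0556), all by limma. Apoa4 was higher at 4-wk by 0.20 ± 0.124 and 0.35 ± 0.172 within L-P/C-HF and by 0.17 ± 0.127 and 0.27 ± 0.175 within H-P/C-HF (SE), with adjusted p-values from 0.281 to 0.534 by limma. Apob gave -0.11 ± 0.0552 within L-P/C-HF and -0.05 ± 0.0564 within H-P/C-HF (SE) by its brighter probe set, and 0.04 ± 0.0976 and 0.21 ± 0.0997 (SE) by the dimmer one, with adjusted p-values of 0.241 or above by limma.

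Markers of other liver cells moved with duration as well. The mean level of 12 Kupffer cell markers ran from 7.98 to 9.16 in control and from 8.04 to 8.88 in switched mice at 2-d, and from 8.79 to 10.19 and from 8.14 to 9.69 at 4-wk. All 12 were higher at 4-wk in both diets, beside 52.5% of all genes within L-P/C-HF and 43.2% within H-P/C-HF. Of them 11 passed within L-P/C-HF, beside 6.01% of all genes, and 9 within H-P/C-HF, beside 6.04%. Of 8 markers of sinusoidal endothelium 6 and 7 passed, all higher, and of 8 markers of stellate cells and fibroblasts 6 and 6, all higher. By contrast, 1 of 10 hepatocyte markers passed within L-P/C-HF, which was higher, and 2 within H-P/C-HF, 1 in each direction. The part of these cells in the differences of Mttp and Apoa5 was not tested. Marker calls were not counted with the RNA quality covariate. With it the calls over all probe sets fell from 3096 to 464 within L-P/C-HF and from 3012 to 622 within H-P/C-HF. The other marker lists had 1 call (intestinal epithelium, 1 of 8 within L-P/C-HF, higher) and otherwise none: 5 genes of cholangiocytes, 4 of adipocytes, 5 of pancreatic acinar cells, 6 of lymphocytes and 2 of erythroid cells.

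Around the 9 genes, 66 of 75 listed genes of the same pathways were measured. None of them was called for diet by limma at 2-d (beside 0.0165% of all 18193 genes, each by its brightest probe set), at 4-wk (0%) or averaged over the durations (0.077%), and a one-way ANOVA also called 0. At an unadjusted p under 0.05, 4 passed at 2-d, 3 at 4-wk and 6 on average, beside 3.66%, 2.99% and 4.99% of all genes. The 12 Kupffer cell markers, none of them called for diet, had a median difference of -0.13 at 2-d and of -0.33 at 4-wk. Below 0 were 12 of 12 at 2-d and 11 of 12 at 4-wk, beside 46.8% and 59.6% of all genes. At an unadjusted p under 0.05 (limma), 0 passed at 2-d, 5 at 4-wk and 6 on average. These were all lower, beside 2.16% of all genes lower at 4-wk and 3.01% on average. Their part in the values below was not tested. Among 22 transcription factors with targets among apolipoprotein genes, 1 passed an unadjusted p under 0.05 in each direction at 2-d (beside 2.04% of all genes higher and 1.62% lower) and 1, which was lower, at 4-wk (beside 2.16%). Srebf2, a sterol-regulated activator of cholesterol genes, was 0.18 ± 0.0601 (SE) below L-P/C-HF at 2-d, with 10 of 11 mice below the control median. Its averaged difference was -0.15 ± 0.042 (SE, p = 0.00109, adjusted p = 0.412, limma). Nr0b2, a repressor induced by bile acids, differed by -0.43 ± 0.136 (SE, p = 0.0025, adjusted p = 0.999, limma) at 4-wk, with 11 of the 12 switched mice under the control median, and by -0.34 ± 0.0975 (SE, adjusted p = 0.412, limma) on average. Esrra, a nuclear receptor of oxidative metabolism, and its coactivator Ppargc1b differed by 0.17 ± 0.0823 and 0.26 ± 0.131 (SE) at 2-d, with p = 0.0423 and 0.0526 by limma, while Creb3l3, an activator of Apoa4, differed by -0.06 ± 0.0482 at 4-wk.

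Of 9 receptors and HDL transporters measured, Vldlr, which binds apolipoprotein E on triglyceride-rich particles, had the lowest p. It was higher in H-P/C-HF mice by 0.19 ± 0.0658 at 2-d, with 11 of 11 mice above the control median, and by 0.17 ± 0.0643 at 4-wk, with 10 of 12 (SE). Its averaged difference was 0.18 ± 0.046 (SE, p = 0.000351, adjusted p = 0.238, limma), and it was called with array weights (0.185, adjusted p = 0.0394, limma). Abca1, which loads HDL with cholesterol, differed by -0.16 ± 0.0663 (SE, p = 0.0177, adjusted p = 0.999, limma) at 4-wk, Pdzk1, the adaptor of Scarb1, by -0.12 ± 0.08 at 2-d, and Lrp5 by -0.13 ± 0.0714 on average.

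All 8 measured genes of plasma lipolysis and its control had a difference below 0 at 2-d, beside 46.8% of all genes, with a median of -0.10 against 0.01 for all genes, but none passed even an unadjusted p under 0.05. Angptl4, an inhibitor of lipoprotein lipase, differed by -0.15 ± 0.105 at 2-d and -0.14 ± 0.103 at 4-wk, Lmf1, which folds the lipase, by -0.09 ± 0.0946 and -0.11 ± 0.0925, Pltp by -0.17 ± 0.114 at 2-d, Pnpla3 by -0.10 ± 0.0825 at 4-wk and Lpl by -0.13 ± 0.0921 on average (SE). Of 18 genes of VLDL assembly and secretion, 12 lay below 0 at 2-d and 13 at 4-wk, beside 46.8% and 59.6% of all genes. The GTPase Sar1b and the cargo receptor Surf4, which move lipoproteins out of the endoplasmic reticulum, differed by -0.10 ± 0.0514 and -0.18 ± 0.093 at 2-d, and P4hb, the partner subunit of Mttp, by -0.10 ± 0.056 (SE; p = 0.0473, 0.0599 and 0.074, limma). At 4-wk the lowest p-values were those of Cideb (-0.07 ± 0.045), Ces1g (-0.27 ± 0.191) and Tm6sf2 (0.15 ± 0.104). Of 9 other apolipoproteins the lowest p-values at 2-d were those of Apoc2, the activator of lipoprotein lipase, at 0.17 ± 0.0853, Apof at -0.05 ± 0.0436 and Apon at -0.06 ± 0.0583, and at 4-wk Apoh (0.03 ± 0.0312), Apom (0.11 ± 0.131) and Apoc2 (0.06 ± 0.0834) had the lowest p-values of that list. The averaged difference of Apoc1 was 0.02 ± 0.0202.

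With duration, 12 of the 66 genes were called within L-P/C-HF, beside 6.01% of all genes, and 9 within H-P/C-HF, beside 6.04%. Of the 12, 8 were higher, and of the 9, 6 were. Of these, 6 were called in both diets, which is 50% of the first list and 66.7% of the second. The like shares over all called genes were not computed, so this overlap is not read as particular to these genes. Mia2, an organizer of endoplasmic reticulum exit sites, rose by 1.33 and 1.27 (L-P/C-HF first, log2), Gpihbp1, which carries lipoprotein lipase across capillary endothelium, by 1.03 and 1.02, Mylip, which marks the low density lipoprotein receptor for degradation, by 1.09 and 0.95, and Pltp, the phospholipid transfer protein, by 0.59 and 0.77. Hnf4a, a main activator of apolipoprotein genes, fell by 0.29 and 0.30, and Rora, an orphan receptor, fell by 0.45 and 0.49. Called in 1 diet were Apoc2 (0.31), Lpl (0.40), Abcg1 (0.22), Nr1d1 (0.36), Cebpb (-0.36) and the remnant receptor Lrp1 (-0.35) within L-P/C-HF, and Sar1b (0.22), Lpcat3 (0.23) and Abca1 (-0.29) within H-P/C-HF; whether the diets differed in these changes was tested by the interaction term, which called none. With the RNA quality covariate Mia2, Gpihbp1, Mylip and Pltp were called in both diets, Mia2 at 0.72 and 0.74, and so were Lrp1 within L-P/C-HF and Abca1 within H-P/C-HF, but Hnf4a (-0.18 and -0.21, adjusted p = 0.299 and 0.0958, limma), Rora and the other genes were not. Among the latter, Lpl (0.39), Cebpb (-0.43) and Nr1d1 (0.44) had differences within L-P/C-HF with the covariate that were about as large as those without it, or larger. The markers of Kupffer cells and endothelium given above rose between the same groups, and their part was not tested.

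Levels of some of the 9 genes also varied together from mouse to mouse. Whether they did so more than other pairs of genes was not tested. Of 36 pairs, compared by their deviations from the group means over 47 mice, 29 had r above 0, with a median of 0.168, and 9 had an adjusted permutation p under 0.05 (36 relations), 8 of them above 0. Apoe was in 4 of the 9: with Apoa5 (r = 0.536, permutation p = 0.00015, adjusted p = 0.00312; rho = 0.491, p = 0.00073, adjusted p = 0.00612; r = 0.465 without the 2 mice farthest from the median), with Mttp (r = 0.535, permutation p = 0.00023, adjusted p = 0.00312; rho = 0.537, p = 0.00023, adjusted p = 0.00414; 0.501), with Apoc3 (r = 0.516, permutation p = 0.00026, adjusted p = 0.00312; rho = 0.517, p = 0.00046, adjusted p = 0.00552; 0.431) and with Apob (r = 0.488, permutation p = 0.00059, adjusted p = 0.00531; rho = 0.532, p = 0.00019, adjusted p = 0.00414; 0.401). Mttp also varied with Apoa5 (r = 0.459, permutation p = 0.00264, adjusted p = 0.0158; rho = 0.479, p = 0.00102, adjusted p = 0.00612; 0.414) and with Apoc3 (r = 0.46, permutation p = 0.00359, adjusted p = 0.0185; rho = 0.421, p = 0.00574, adjusted p = 0.0295; 0.433).

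For the other pairs r moved more when 2 mice were left out. Lcat and Scarb1 had r = 0.485 (permutation p = 0.00257, adjusted p = 0.0158; rho = 0.5, p = 0.00087, adjusted p = 0.00612), and r = 0.655 without the 2 farthest mice. Lcat and Apoa1 moved in opposite directions (r = -0.45, permutation p = 0.00536, adjusted p = 0.0241; rho = -0.366, p = 0.0135, adjusted p = 0.0608), and r was -0.237 without the 2 farthest mice. With the RNA quality measure r was -0.671 for Lcat, -0.313 for Scarb1 and 0.292 for Apoa1 by its brightest probe set. The pairs were not adjusted for this measure, and its part in them was not tested. Apoa5 and Apoc3 had r = 0.416 (permutation p = 0.0102, adjusted p = 0.0409), but rho was 0.231 (p = 0.128, adjusted p = 0.252) and r was 0.102 without the 2 farthest mice, so that this relation rests on those mice. The 6 pairs of neighbours on chromosome 9 had a median r of 0.17, beside 0.168 for the other 30 pairs.

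**Figure D5:**
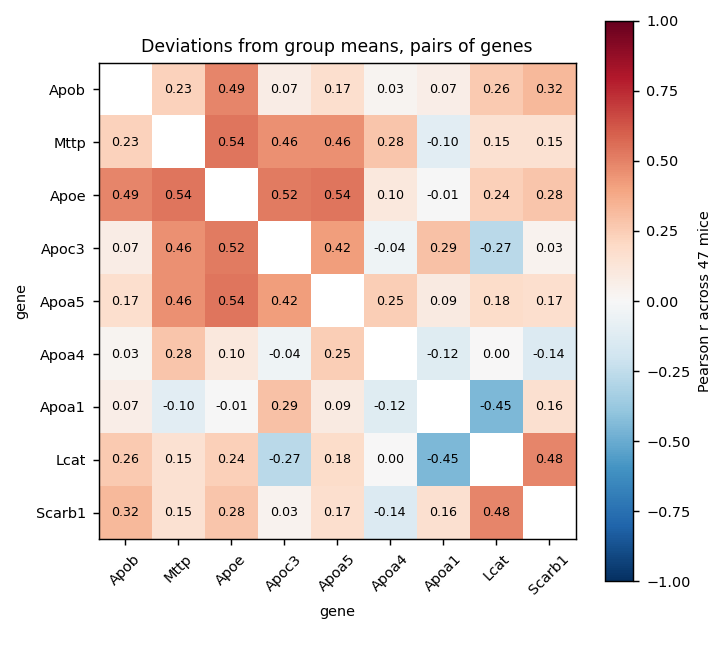
Pearson r (colour and number) between pairs of the 9 genes (both axes), over 47 mice, after the mean of its group was taken from each level. Apoe has the highest values, with Apoa5 (0.54), Mttp (0.54), Apoc3 (0.52) and Apob (0.49), and Apoa1 with Lcat is the lowest (-0.45).

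Among 14507 other genes with a mean level above 6, those whose deviations were most like each of the 9 were found by r over the same 47 mice, as a description. Apoe was nearest to Pgrmc1 (r = 0.844) and Atp5pb (0.835), Lcat to Tm2d2 (0.86) and Tmbim4 (0.845), Scarb1 to Fech (0.79) and Adi1 (0.781), and Apoc3 to Qdpr (0.778) and its relative Apoc4 (0.767). Mttp was nearest to Uck1 (0.743) and Ddhd2 (0.725), Apoa4 to 2010003K11Rik (0.733) and 2810408I11Rik (0.631), Apoa5 to the fructose kinase Khk (0.676) and to Slc25a47 (0.664), and Apob to Mpst (0.63) and Cdc5l (0.606). Apoa1 had the urea cycle enzyme Cps1 (0.641) and the bile acid transporter Slc10a1 (0.63), which fell to 0.332 and 0.382 over the 44 mice without A01, A09 and A24. For the other 8 genes the values over these 44 mice were 0.557 or above. Of these 18 genes Apoc4 and Pgrmc1 are also on the pathway lists, with the other apolipoproteins and with VLDL assembly.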

How the data were processed

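Liver RNA of 48 mice was hybridised to Affymetrix whole-genome mouse arrays by the authors. The deposited values are log2 levels per probe set from RMA, run by the authors, which corrects background, normalizes between arrays and summarizes probes; the log base was read from the values, which run from 3.16 to 14.81 with 2 decimals. RMA equalizes the arrays, so a shift common to all genes cannot be seen. Diets were taken from the labels, the one naming high protein as H-P/C-HF.

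Of 45101 probe sets, 64 controls were left out. One linear model with 4 group means was fitted over 47 arrays by the lmFit and trended eBayes functions of limma (version 3.58.1, under R 4.3.3), in place of the ANOVA and Global Error Assessment of the study, and contrasts were tested two-sided with Benjamini-Hochberg adjustment over 45037 probe sets at 0.05. The fit was tested on simulated data with independent noise, as a check of the procedure only. Genes were named from the platform annotation: 34945 probe sets have 1 symbol, 932 several and 9160 none, and the brightest probe set spoke for a gene outside the 9. Named genes were all 9, every listed pathway gene called, the 3 of each pathway list with the lowest p in each diet comparison, and the 2 genes most like each of the 9. The members and lists were chosen with earlier results of these data known. The number of arrays limits the precision. Correlations used 100000 permutations of mice within groups. Promoter windows are those of RefSeq for GRCm38.p6. Alternatives were B25 included, A01, A09 and A24 left out, median centring, cyclic loess, an RNA quality covariate, the replicate number as a block, array weights, a filter on levels above 6, one-way ANOVA and averaging the probe sets of each gene. No replicate was left out in turn, since groups have over 5 mice.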

Additional observations from a re-analysis of the deposited data

How the results depend on the processing

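None of the 17 probe sets was called for diet, or for the difference between the diet effects, under any of the 10 alternatives; for the 2-d difference of Mttp 1419400_at the adjusted p ranged from 0.168 to 1 over them, and its value from -0.25 to -0.209. Of the pathway genes 1, Vldlr, was called for the averaged diet effect with array weights. Within L-P/C-HF, 0 of the 17 were called with the RNA quality covariate, and 5 pathway genes with this covariate and 6 by one-way ANOVA, against 12. Over all probe sets these 2 settings called 464 and 1659, against 3096. Within H-P/C-HF, 1 of the 17 was called with cyclic loess, 1 with the RNA quality covariate and 1 with array weights, against 2, and 16, 5 and 19 pathway genes, against 9. Over all probe sets the same settings called 4266, 622 and 5701, against 3012, so the changes in pathway counts are not read as particular to these genes. Mttp within L-P/C-HF was called at 0.235 (adjusted p = 0.0311, limma) with the mean of its probe sets, because 1419399_at, called at 0.472 alone, enters the mean. For 1419400_at alone the difference was -0.000833 and was not called. Lcat turned from 0.0258 to -0.184 within L-P/C-HF and from 0.104 to -0.0787 within H-P/C-HF with the RNA quality covariate, none of them called. The causes of the others were not tested.

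Counts over all probe sets moved as well. For 2-d they were 6, and 23 with cyclic loess, 11 with the filter on dim probe sets, 1 with the replicate block, and 0 by one-way ANOVA or over gene means; for 4-wk 0, and 1 with cyclic loess, 2 with the block and 10 with array weights; for the averaged effect 23, and 72, 95, 15 and 13 with cyclic loess, array weights, one-way ANOVA and gene means. Within L-P/C-HF they were 3096, and 464 with the RNA quality covariate, 1659 by one-way ANOVA and 1184 over gene means; within H-P/C-HF 3012, and 622 with the covariate, 5701 with array weights and 1218 over gene means. The replicate numbers do not pair the mice (correlations of same-numbered arrays from -0.618 to 0.601, median -0.021, 22 of 69 over 0.1), and the replicate block changed no call of the 17. Each of 9 alternatives gave 102 values of the 17 probe sets, and over all of these 59 had the opposite sign to the reported value; no called value changed sign, and the largest value that did was 0.134 in size. Median centring and cyclic loess moved the median of all probe sets by at most 0.0253.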
